A study of Mus musculus with 4 samples.

Results

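The 35 transcripts examined are those of every gene that the deposited tables place on the mitochondrial chromosome (MT), out of 33981 genes in all. They comprised 13 protein-coding genes, 2 ribosomal RNA (rRNA) genes and 20 transfer RNA (tRNA) genes. The reference annotation of this genome lists 37 genes, and the tRNA genes mt-Tf and mt-Td were not analysed here. The RNA came from a coronal section of brain including the prefrontal cortex of male C57BL/6J mice aged 3 to 5 months. NT + Sham and NT + Stroke mice were infused with saline, and HT + Sham and HT + Stroke mice with angiotensin II (dose 0.28 mg/kg/day), each for 28 days. Surgery was on day 7, either a sham operation or a photothrombotic stroke, in which light activates an injected dye and clots the vessels beneath it, so that RNA was collected 21 days after surgery. There were 6 libraries in each group, and each was taken to be 1 mouse from its numbering. The labels do not say whether they came from separate animals, so the P-values measure the spread between these libraries. A section taken 21 days after a focal infarct mixes infarcted and intact tissue, and in such bulk RNA fewer cells of a type and less RNA per cell cannot be told apart.

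Mitochondria keep a small circular genome of their own. It encodes subunits of the complexes that make ATP by oxidative phosphorylation (complexes I, III and IV and the ATP synthase), together with the rRNAs and tRNAs needed to translate them. Both of its strands, called heavy and light, are transcribed into long precursors that run through many genes, and the tRNAs that lie between the others are cut out to free the mRNAs and rRNAs. Most of the mRNAs then receive short poly(A) tails. Neurons depend heavily on this genome, because signalling consumes much ATP, and ischaemia stops that supply. The remaining subunits of these complexes, and all of complex II, are encoded in the nucleus.

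All 35 genes had the same position and strand in the tables and in the GENCODE annotation of GRCm38, on which positions are given. The sequences below were read from the transcripts of that annotation and are written 5′ to 3′. 9 members, mt-Nd6 and 8 tRNA genes, are transcribed from the light strand, and the other 26 from the heavy strand. The counting is not stated to use strand, so reads of a gene and of the transcript running opposite to it cannot be told apart. The genes are packed end to end. Among neighbouring genes from mt-Tf to mt-Tp the widest gap, of 32 bases, lies between mt-Tn and mt-Tc. It holds the origin of light-strand replication. The stretch from the end of mt-Tp around the circle to mt-Tf was not measured here. The widest overlap, of 43 bases, is between the ATP synthase genes mt-Atp8 (MT:7766-7969) and mt-Atp6 (MT:7927-8607). Reads within it fall in both genes, and how these were counted is not stated, so it is shown in capitals here:
mt-Atp8: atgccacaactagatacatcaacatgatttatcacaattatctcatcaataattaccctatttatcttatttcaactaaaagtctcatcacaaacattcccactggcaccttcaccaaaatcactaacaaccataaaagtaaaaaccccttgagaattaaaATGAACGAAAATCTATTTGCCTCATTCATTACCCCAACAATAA
The genes mt-Nd4l and mt-Nd4 overlap by 7 bases and mt-Nd5 and mt-Nd6 by 14. The genes mt-Co3, mt-Nd4 and mt-Cytb end 1 base past the last whole codon, so that the stop codon is completed only by the poly(A) tail added to the mRNA. Their last 30 bases, with that base in capitals, show the site where transcript and tail meet, which matters because the libraries were made from poly(A) RNA:
mt-Co3: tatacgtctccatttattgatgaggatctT
mt-Nd4: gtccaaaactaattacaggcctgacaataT
mt-Cytb: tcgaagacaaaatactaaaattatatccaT
The tRNA genes that passed the edgeR test between groups with all libraries and no covariate were mt-Tw (MT:4950-5016, tryptophan), mt-Tc (MT:5192-5257, cysteine, light strand) and mt-Tm (MT:3845-3913, methionine), given here with mt-Tp (MT:15356-15422, proline, light strand), the tRNA gene with the most counts:
mt-Tw: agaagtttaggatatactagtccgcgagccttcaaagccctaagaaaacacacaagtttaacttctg
mt-Tc: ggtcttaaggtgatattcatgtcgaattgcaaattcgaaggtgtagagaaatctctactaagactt
mt-Tm: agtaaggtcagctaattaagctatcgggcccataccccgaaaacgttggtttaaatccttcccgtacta
mt-Tp: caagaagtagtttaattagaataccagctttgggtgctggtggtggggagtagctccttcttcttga

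Part of the mitochondrial genome also exists as a copy in the nucleus, and reads from the copied part cannot be assigned with certainty. 7 annotated pseudogenes on the minus strand of chromosome 1, within chr1:24611535-24616197, matched mitochondrial genes at over 99% identity. Gm28661 was identical to mt-Co2 over 681 bases, Gm10925 to mt-Atp6 over 678, Gm28437 to mt-Co3 over 783, Gm10222 to mt-Nd4l over 294 and Gm28439 to the first 876 bases of mt-Nd4. Gm28438 differed from mt-Nd3 at 1 of 345 bases, and Gm29216 from the last 483 bases of mt-Co1 at 1. Both differences are shown in capitals, T3C between mt-Nd3 and Gm28438 and A1066T between mt-Co1 and Gm29216, with positions counted from 1 at the 5′ end of the mitochondrial gene:
mt-Nd3: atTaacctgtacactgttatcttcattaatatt
Gm28438: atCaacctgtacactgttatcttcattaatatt
mt-Co1: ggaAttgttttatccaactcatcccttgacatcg
Gm29216: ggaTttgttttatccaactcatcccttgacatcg
The pseudogenes are spaced on chromosome 1 as their partners are on MT, exactly for 5 of them and 1 base apart for Gm10222 and Gm28439. The stretch therefore corresponds to MT:6390-11042, from the first to the last aligned base. It holds the whole of 6 protein-coding genes (mt-Co2, mt-Atp8, mt-Atp6, mt-Co3, mt-Nd3 and mt-Nd4l) and of 4 listed tRNA genes (mt-Ts1, mt-Tk, mt-Tg and mt-Tr), and parts of mt-Co1 and mt-Nd4. The nuclear sequence between the pseudogenes was not read here. A further 10 nuclear genes matched a mitochondrial gene at 90.7% to 97.6% identity, and none of them had more than 85 counts in a library.

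The counts were divided between gene and copy in proportions that differed from pair to pair. Of the summed counts of mt-Co2 and Gm28661, 36.8% to 56.9% (median 52.1%) were given to the pseudogene. The median share was 43.6% for Gm10925 (mt-Atp6), 37.1% for Gm10222 (mt-Nd4l) and 36.4% for Gm28437 (mt-Co3). It was 12.2% for Gm28438, which differs from mt-Nd3 by 1 base, and 0.416% and 0.189% for Gm29216 and Gm28439, which match only part of mt-Co1 and mt-Nd4. The counts of the mitochondrial genes inside this stretch are uncertain, as are those of their copies. How reads that fit both places were counted is not stated, so these shares do not measure the size of the uncertainty.

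**Figure D1:**
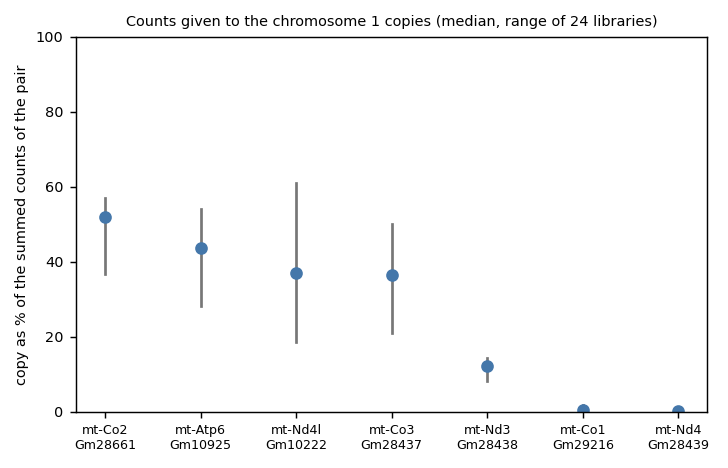
Share of the summed counts of a mitochondrial gene and its chromosome 1 copy that was given to the copy (y axis, percent), for the 7 pairs (x axis). Points are medians and lines the range over 24 libraries. The share was highest for the mt-Co2 pair (median 52.1%) and lowest for the mt-Nd4 pair (0.189%).

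The total count per library was 15922919 to 24865998. The tissue carried the markers of neurons, astrocytes, oligodendrocytes and microglia in every library. The summed level of 8 neuronal markers was 10442 to 11200 counts scaled to the library (CPM) in NT + Sham, 8023 to 9267 in NT + Stroke, 9205 to 10722 in HT + Sham and 7943 to 10074 in HT + Stroke. In 3 libraries the reactive glial genes Gfap and Cd68 stood apart from the rest of their group. Gfap was 249 and 231 CPM in HT + Stroke 1 and 6 and 919.6 to 1346 CPM in the other HT + Stroke libraries. It was 550.2 CPM in HT + Sham 6 and 163 to 242 CPM in the other HT + Sham libraries. Cd68 was 19.6 and 18.8 CPM in HT + Stroke 1 and 6, below the 37.6 to 93.6 CPM of the others but above the 7.57 to 13.3 CPM of NT + Sham, and it was 27.2 CPM in HT + Sham 6 and at most 13.6 CPM in the other HT + Sham libraries. Each comparison with HT + Sham or HT + Stroke was therefore also made without these 3 libraries.

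Mitochondrial genes took 5.89% to 7.50% of all counts, and 7 of the 10 genes with the most counts in the series were mitochondrial. The share per library was 6.34% to 7.15% among NT + Sham libraries with a median of 6.81%, 6.10% to 6.98% with a median of 6.18% for NT + Stroke, 6.11% to 7.50% with a median of 6.38% for HT + Sham and 5.89% to 6.55% with a median of 6.24% for HT + Stroke. The lowest NT + Sham library lay above 5 of the 6 NT + Stroke libraries, whose shares were 6.10% to 6.23%, and NT + Stroke 5, at 6.98%, lay above the NT + Sham median. HT + Sham spanned the widest range and overlapped every other group. Without the 3 libraries the median was 6.46% in HT + Sham and 6.09% in HT + Stroke. The 13 protein-coding genes made up 5.09% to 6.34% of counts, the 2 rRNA genes 0.638% to 1.21% and the 20 tRNA genes 0.0136% to 0.0212%. The share is a sum over the members and was given no test.

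**Figure D2:**
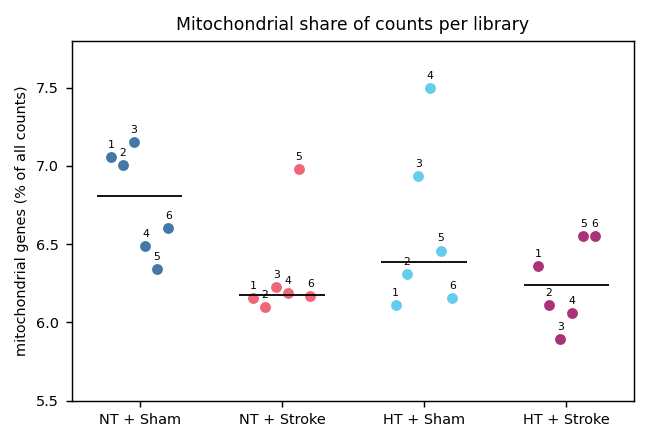
Mitochondrial genes as a percent of all counts (y axis, from 5.5 to 7.8) in each library of the 4 groups (x axis). Points carry the library number and lines are group medians. In NT + Stroke 5 of 6 libraries sit between 6.10% and 6.23%, below the NT + Sham range of 6.34% to 7.15%, and library 5 is at 6.98%.

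To compare genes with each other, levels are given as the deposited FPKM, counts scaled to gene length and library, as the median of 24 libraries. The order was led by mt-Cytb (10513 FPKM), mt-Nd1 (10283) and mt-Co1 (9384), followed by mt-Nd2 (6149), mt-Nd4 (5595), mt-Nd6 (5067), mt-Rnr1 (4530.4) and mt-Rnr2 (3095). Neighbours in this order overlapped in range, and mt-Cytb was above mt-Nd1 in 18 of 24 libraries, but mt-Co1 was above mt-Nd2, and mt-Rnr1 above mt-Rnr2, in all 24. A clear step followed, with mt-Rnr2 above mt-Nd5 (1294 FPKM) without overlap. The 7 protein-coding genes that lie outside the copied stretch or only partly inside it had medians of 1294 to 10513 FPKM. The 6 that lie wholly inside it had medians of 7.91 to 321 FPKM, namely mt-Co2 (321), mt-Atp6 (178), mt-Nd3 (168), mt-Co3 (115), mt-Nd4l (18.1) and mt-Atp8 (7.91). With the counts of the copy added, the summed FPKM was 679.5 for mt-Co2 and Gm28661 and 184 for mt-Co3 and Gm28437. Reads that fit both places may be missing from both counts, so these sums cannot show how far the copies affect the level. What set the level of these 6 genes was not tested. They also varied more between libraries of a group, with coefficients of variation of 15.6% to 60.9% against 7.72% to 14.7% for the other 7. For comparison, 79 highly expressed nuclear genes had a median coefficient of variation of 9.25%.

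The tRNA genes, which are short and carry no stable poly(A) tail, had few counts, most of them in genes annotated to the light strand. The strand of the reads themselves is not known. The 8 light-strand tRNA genes held 70479 counts over all libraries, 37801 of them in mt-Tp, and the 12 heavy-strand ones 6833. The highest were mt-Tp (1236 FPKM), mt-Tc (529.6), mt-Tn (336, asparagine) and mt-Te (145, glutamate), each on the light strand, and the highest heavy-strand tRNA gene was mt-Tl1 (leucine) at 65.7 FPKM. At the other end, mt-Ts1 and mt-Tk had medians of 0 counts, with 8 and 3 counts in all. In every comparison of 2 groups 26 members passed the filter on low counts, the 13 protein-coding and 2 rRNA genes and 11 tRNA genes. The tRNA genes mt-Tr and mt-Th passed it only in the fit of all 4 groups, and mt-Tv, mt-Tq, mt-Ta, mt-Ts1, mt-Tk, mt-Ts2 and mt-Tt, with 0 to 19 counts per library, in none.

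**Figure D3:**
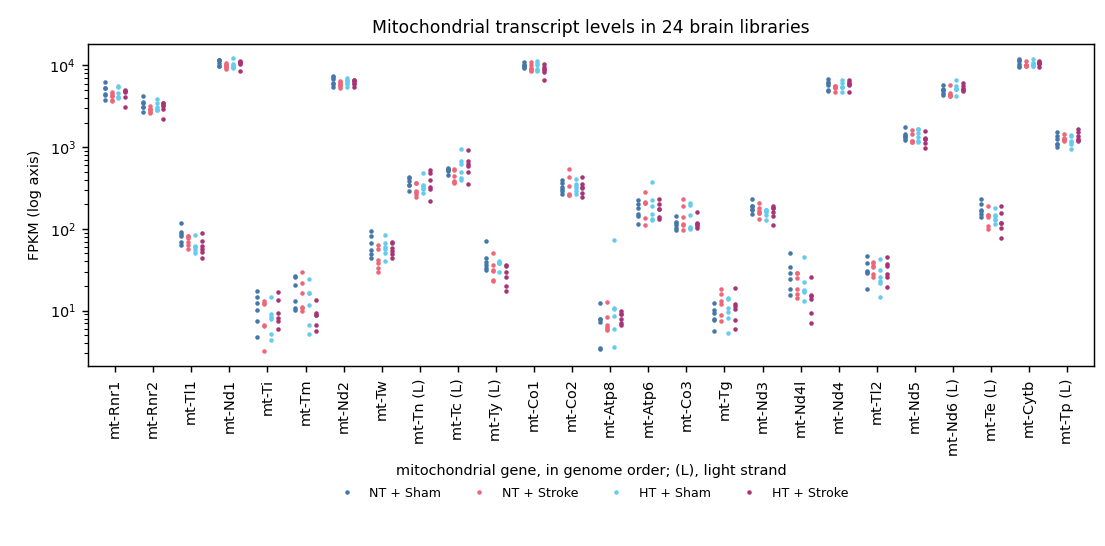
Deposited FPKM (y axis, log scale) of the 26 members tested in every comparison (x axis, in genome order, with (L) for the light strand). Each point is 1 library, coloured by group. Levels differ far more between genes than between groups, from a median of 7.91 for mt-Atp8 to 10513 for mt-Cytb.

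The stroke effect in normotensive mice was read from NT + Stroke vs NT + Sham, where few mitochondrial transcripts passed the test. Of 26 members tested, 4 fell and 0 rose at an adjusted P under 0.05. They were the rRNA gene mt-Rnr2, the complex I subunit gene mt-Nd1 and the tRNA genes mt-Tw and mt-Tc. Over all 16835 genes tested, 25.9% passed this threshold and 11.5% passed it as lower. The median log2 fold change of the 26 members was −0.19 and that of all genes −0.01, with values of −0.61 (mt-Tw) to 0.47 (mt-Tg) and 19 members below 0. At an unadjusted P under 0.05, 9 members were lower and 0 higher, against 36.0% of all genes in either direction. The groups overlapped for each of the 26 members, whereas they did not overlap for 13.5% of all genes.

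Levels of each gene are given below as the lowest, the median and the highest of the 6 libraries of a group. mt-Rnr2 ran from 4299 through 5229 to 6698 CPM among NT + Sham libraries, from 3987 through 4447 to 4882 among NT + Stroke libraries, from 4402 through 4734 to 6154 among HT + Sham libraries and from 3179 through 4975 to 5388 among HT + Stroke libraries. This gene encodes the rRNA of the large mitochondrial ribosomal subunit. It fell in NT + Stroke, from a mean of 5330.3 ± 833 CPM to 4387 ± 323 CPM (SD, n = 6; log2 fold change −0.28 ± 0.088 SE, edgeR adjusted P = 0.0272), and 6 of 6 NT + Stroke libraries lay below the NT + Sham median. mt-Rnr1 ran from 3633 through 4676 to 5966 CPM among NT + Sham libraries, from 3431 through 3923 to 4355 among NT + Stroke libraries, from 3805 through 4148 to 5379.6 among HT + Sham libraries and from 2745 through 4488 to 4667 among HT + Stroke libraries. It encodes the rRNA of the small subunit, lies just upstream and had a log2 fold change of −0.27 (± 0.10 SE, edgeR adjusted P = 0.0560) in the same comparison. The ratio of mt-Rnr2 to mt-Rnr1 counts was nearly constant, 1.05 to 1.22 over 24 libraries.

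mt-Nd1 ran from 9327 through 10609.6 to 11347 CPM among NT + Sham libraries, from 8142 through 9173 to 9914 among NT + Stroke libraries, from 8882 through 9526 to 11724 among HT + Sham libraries and from 7437 through 10171 to 10495 among HT + Stroke libraries. It encodes a subunit in the membrane arm of complex I, and fell in NT + Stroke (9129.6 ± 593 CPM against 10445 ± 897 CPM, SD, n = 6; log2 fold change −0.19 ± 0.067 SE, edgeR adjusted P = 0.0457), with 6 of 6 libraries below the NT + Sham median. mt-Nd2 ran from 5689 through 6817 to 7704 CPM among NT + Sham libraries, from 5397 through 5914 to 6531 among NT + Stroke libraries, from 5640.0 through 6394 to 7302 among HT + Sham libraries and from 5194 through 6453 to 6775 among HT + Stroke libraries. mt-Nd4 ran from 6794 through 8265 to 9548 CPM among NT + Sham libraries, from 6144 through 7234 to 7576 among NT + Stroke libraries, from 6465 through 7439.6 to 9151 among HT + Sham libraries and from 5941 through 7973 to 8805 among HT + Stroke libraries. In NT + Stroke vs NT + Sham the log2 fold changes of these further membrane-arm subunits were −0.20 (± 0.078 SE, edgeR adjusted P = 0.0733) for mt-Nd2 and −0.18 (± 0.083 SE, edgeR adjusted P = 0.132) for mt-Nd4, neither past the threshold, and for both genes all 6 NT + Stroke libraries lay below the NT + Sham median. mt-Nd5 ran from 2282 through 2496 to 3251 CPM among NT + Sham libraries, from 2044 through 2112 to 2836 among NT + Stroke libraries, from 2090.1 through 2552 to 3032 among HT + Sham libraries and from 1729 through 2258 to 2662 among HT + Stroke libraries. mt-Nd6 ran from 2292 through 2592 to 2988 CPM among NT + Sham libraries, from 2087 through 2208 to 2882 among NT + Stroke libraries, from 2172 through 2623 to 3486 among HT + Sham libraries and from 2434 through 2611 to 3069.8 among HT + Stroke libraries. The levels of mt-Nd5, the next membrane-arm gene, and of mt-Nd6, the only mRNA of the light strand, had log2 fold changes of −0.18 (± 0.095 SE, edgeR adjusted P = 0.186) and −0.15 (± 0.081 SE, edgeR adjusted P = 0.188). mt-Nd3 ran from 52.3 through 63.3 to 81.9 CPM among NT + Sham libraries, from 43.2 through 54.5 to 71.0 among NT + Stroke libraries, from 44.7 through 56.2 to 59.8 among HT + Sham libraries and from 35.8 through 58.6 to 62.8 among HT + Stroke libraries. mt-Nd4l ran from 4.62 through 7.91 to 14.974 CPM among NT + Sham libraries, from 4.17 through 6.26 to 8.38 among NT + Stroke libraries, from 3.93 through 5.21 to 13.3 among HT + Sham libraries and from 1.99 through 4.22 to 7.12 among HT + Stroke libraries. These short subunit genes lie inside the copied stretch, and their log2 fold changes were −0.20 (± 0.11 SE, edgeR adjusted P = 0.228) and −0.43 (± 0.28 SE, edgeR adjusted P = 0.291). Among the 7 complex I genes mt-Nd4l had the widest spread relative to its level.

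mt-Cytb ran from 11196 through 12536 to 13645 CPM among NT + Sham libraries, from 10639 through 11245 to 12473 among NT + Stroke libraries, from 11038 through 11693 to 13789 among HT + Sham libraries and from 9952 through 12198 to 12301 among HT + Stroke libraries. It encodes cytochrome b, the only subunit of complex III made in mitochondria, and varied least of all members (coefficient of variation 7.72%), with a log2 fold change of −0.13 (± 0.066 SE, edgeR adjusted P = 0.167) in NT + Stroke vs NT + Sham. mt-Co1 ran from 14494 through 15350.3 to 17358 CPM among NT + Sham libraries, from 12973 through 13714 to 16319.8 among NT + Stroke libraries, from 13109 through 14735 to 17591 among HT + Sham libraries and from 9877 through 13494 to 14703 among HT + Stroke libraries. It encodes the catalytic subunit of complex IV, cytochrome c oxidase, and had a log2 fold change of −0.13 (± 0.067 SE, edgeR adjusted P = 0.166). mt-Co2 ran from 186 through 217 to 275 CPM among NT + Sham libraries, from 169 through 201 to 360.1 among NT + Stroke libraries, from 182 through 222 to 278 among HT + Sham libraries and from 154 through 216 to 283 among HT + Stroke libraries. mt-Co3 ran from 76.7 through 90.9 to 112 CPM among NT + Sham libraries, from 73.4 through 96.8 to 179.7 among NT + Stroke libraries, from 77.6 through 97.7 to 162 among HT + Sham libraries and from 77.1 through 84.8 to 125 among HT + Stroke libraries. The other complex IV genes, mt-Co2 and mt-Co3, had log2 fold changes of 0.05 (± 0.20 SE, edgeR adjusted P = 0.884) and 0.31 (± 0.21 SE, edgeR adjusted P = 0.338). With the copy's counts added, mt-Co2 and mt-Co3 remained without a call in every comparison. mt-Atp6 ran from 78.7 through 112 to 155 CPM among NT + Sham libraries, from 74.5 through 136 to 188 among NT + Stroke libraries, from 87.0 through 116 to 254 among HT + Sham libraries and from 81.8 through 118 to 154 among HT + Stroke libraries. mt-Atp8 ran from 0.698 through 1.56 to 2.57 CPM among NT + Sham libraries, from 1.15 through 1.29 to 2.52 among NT + Stroke libraries, from 0.712 through 1.94 to 15.2 among HT + Sham libraries and from 1.31 through 1.63 to 1.99 among HT + Stroke libraries. These encode membrane subunits of the ATP synthase, and their log2 fold changes were 0.14 (± 0.23 SE, edgeR adjusted P = 0.722) and 0.07 (± 0.30 SE, edgeR adjusted P = 0.906). In mt-Atp8 the library HT + Sham 4 stood far above the rest, with counts of 12, 28, 37, 251, 41 and 24 in HT + Sham 1 to 6.

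mt-Tw ran from 2.94 through 4.13 to 6.34 CPM among NT + Sham libraries, from 1.93 through 2.60 to 4.14 among NT + Stroke libraries, from 2.66 through 3.88 to 5.62 among HT + Sham libraries and from 2.79 through 3.69 to 4.56 among HT + Stroke libraries. This tRNA gene fell in NT + Stroke (log2 fold change −0.61 ± 0.22 SE, edgeR adjusted P = 0.0473), with 5 of 6 libraries below the NT + Sham median, on 31 to 118 counts per library. mt-Tc ran from 30.5 through 35.5 to 36.4 CPM among NT + Sham libraries, from 22.7 through 26.5 to 34.9 among NT + Stroke libraries, from 26.3 through 36.2 to 63.6 among HT + Sham libraries and from 21.5 through 39.0 to 58.6 among HT + Stroke libraries. It fell in NT + Stroke (log2 fold change −0.29 ± 0.10 SE, edgeR adjusted P = 0.0410) with 6 of 6 libraries below the NT + Sham median, and the spread was widest in the HT groups. mt-Tn ran from 20.5 through 25.9 to 30.9 CPM among NT + Sham libraries, from 16.4 through 19.6 to 25.6 among NT + Stroke libraries, from 19.2 through 22.6 to 34.2 among HT + Sham libraries and from 14.3 through 25.1 to 35.7 among HT + Stroke libraries. mt-Te ran from 9.65 through 11.6 to 16.001 CPM among NT + Sham libraries, from 6.78 through 9.49 to 12.8 among NT + Stroke libraries, from 7.72 through 9.46 to 12.4 among HT + Sham libraries and from 5.05 through 8.06 to 12.2 among HT + Stroke libraries. The log2 fold changes of these light-strand tRNA genes were −0.32 (± 0.12 SE, edgeR adjusted P = 0.0538) for mt-Tn and −0.39 (± 0.15 SE, edgeR adjusted P = 0.0619) for mt-Te. mt-Tp ran from 67.8 through 79.9 to 103 CPM among NT + Sham libraries, from 78.1 through 80.6 to 93.4 among NT + Stroke libraries, from 62.0 through 76.8 to 94.5 among HT + Sham libraries and from 72.5 through 87.1 to 107 among HT + Stroke libraries. Its groups overlapped throughout (log2 fold change 0.00 ± 0.088 SE, edgeR adjusted P = 0.990). mt-Tl1 ran from 4.74 through 6.42 to 9.07 CPM among NT + Sham libraries, from 4.02 through 5.34 to 5.97 among NT + Stroke libraries, from 3.81 through 4.45 to 6.33 among HT + Sham libraries and from 3.17 through 4.23 to 6.49 among HT + Stroke libraries. mt-Ty ran from 2.12 through 2.52 to 4.83 CPM among NT + Sham libraries, from 1.49 through 2.01 to 3.29 among NT + Stroke libraries, from 1.96 through 2.53 to 2.73 among HT + Sham libraries and from 1.16 through 1.82 to 2.43 among HT + Stroke libraries. The leucine and tyrosine tRNA genes had log2 fold changes of −0.30 (± 0.15 SE, edgeR adjusted P = 0.162) and −0.44 (± 0.23 SE, edgeR adjusted P = 0.185). The remaining tested tRNA genes, mt-Ti, mt-Tg, mt-Tl2 and mt-Tm, had 4 to 70 counts per library and no call in this comparison.

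The calls in NT + Stroke vs NT + Sham rested on small differences close to the threshold. Their number was 0 without NT + Stroke 1 or NT + Stroke 2, 1 without NT + Sham 1, 2 or 3 or NT + Stroke 6, and 3 without NT + Sham 4, 5 or 6 or NT + Stroke 4. It was 4 without NT + Stroke 3 and 6 without NT + Stroke 5. Over these 12 fits mt-Rnr2 was called in 5, mt-Tw in 4, and mt-Nd1 and mt-Tc in 3 each. The number called was also 0 without scaling of the libraries or with limma on log2 FPKM, and 7 with DESeq2. Markers of several cell types moved in the same comparison. Of 8 neuronal markers 5 fell and 0 rose, of 7 astrocyte markers 6 rose, of 8 microglia and macrophage markers 7 rose and of 4 fibroblast markers 4 rose. So did 3 of 6 oligodendrocyte, 2 of 5 endothelial, 1 of 4 choroid plexus and ependyma and 3 of 5 olfactory bulb markers, the last with a summed CPM of 62.5 to 147 in NT + Sham and 101 to 406 in NT + Stroke. The summed CPM of the lists was 2017 to 2360.3 in NT + Sham and 2592 to 3278 in NT + Stroke for astrocytes, 261 to 284 and 422 to 746 for microglia and macrophages, and 37.5 to 50.1 and 157 to 633 for fibroblasts. The part of these shifts in the mitochondrial values was not tested.

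**Figure D4:**
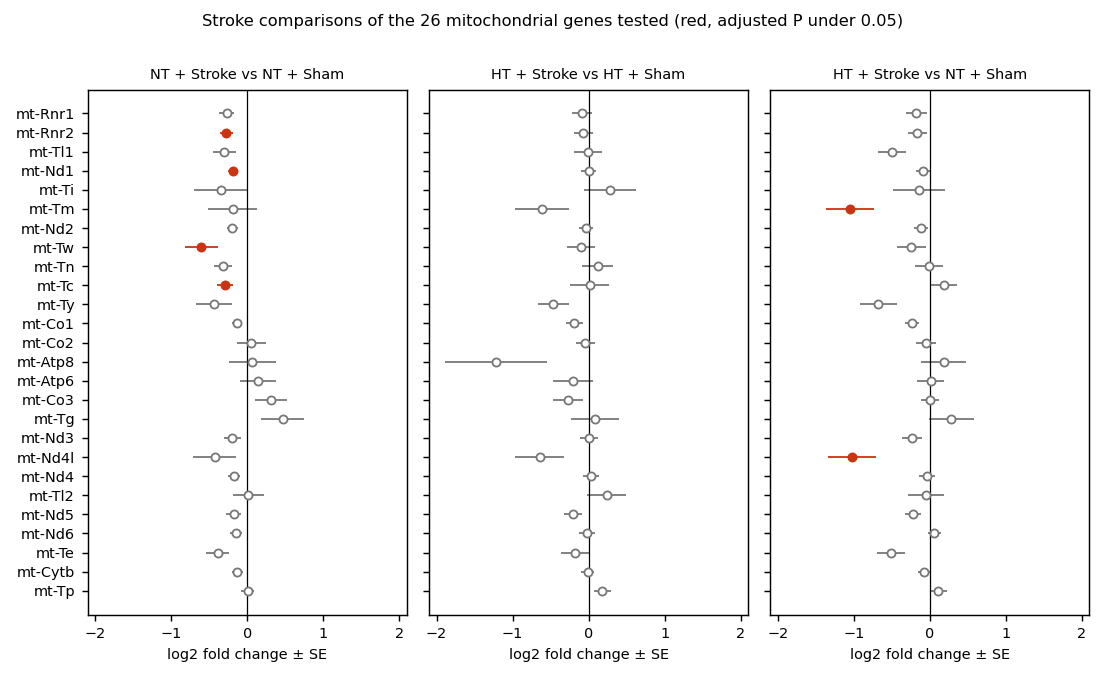
Log2 fold change with its standard error (x axis) of the 26 mitochondrial genes tested (y axis, in genome order) in the 3 comparisons of a stroke group with a sham group. Red points have an adjusted P under 0.05, 4 in NT + Stroke vs NT + Sham, 0 in HT + Stroke vs HT + Sham and 2 in HT + Stroke vs NT + Sham, each of them lower after stroke.

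Hypertension alone, HT + Sham vs NT + Sham, gave no call. Of 26 members 0 passed an adjusted P under 0.05 with edgeR or with DESeq2, as did 0% of the 16581 genes tested with edgeR. At an unadjusted P under 0.05, 3 members were lower and 0 higher, against 8.03% of all genes. They were mt-Tl1 (log2 fold change −0.48 ± 0.16 SE, edgeR adjusted P = 0.442), mt-Nd3 (−0.25 ± 0.098 SE, edgeR adjusted P = 0.527) and mt-Te (−0.33 ± 0.13 SE, edgeR adjusted P = 0.517). The lowest of 26 log2 fold changes was −0.48 (mt-Tl1), the median −0.09 and the highest 1.40 (mt-Atp8, SE 0.75), the last resting on HT + Sham 4. All 26 members overlapped between the groups, where 0.344% of all genes did not. Without HT + Sham 6 there were again 0 calls.

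Hypertension among mice with a stroke, HT + Stroke vs NT + Stroke, also gave no call. Of 26 members 0 passed, again by both tools, as did 0% of 17008 genes by edgeR, and all 26 overlapped (0.159% of all genes did not). At an unadjusted P under 0.05 there were 2 members lower and 2 higher, against 7.23% of all genes. The lower ones were mt-Tm (log2 fold change −0.87 ± 0.32 SE, edgeR adjusted P = 0.654) and mt-Nd4l (−0.61 ± 0.27 SE, edgeR adjusted P = 0.654), and the higher ones mt-Tc (0.47 ± 0.20 SE, edgeR adjusted P = 0.654) and mt-Nd6 (0.21 ± 0.088 SE, edgeR adjusted P = 0.654). The median log2 fold change of the members was 0.00073. Without HT + Stroke 1 and 6 no member had an unadjusted P under 0.05.

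The stroke effect in hypertensive mice, HT + Stroke vs HT + Sham, was examined in libraries that include the 3 whose Gfap and Cd68 stand apart. Of 26 members 0 passed with edgeR or with DESeq2, and over all 16741 genes 0.645% did with edgeR. At an unadjusted P under 0.05, 1 member was lower, mt-Ty (log2 fold change −0.46 ± 0.20 SE, edgeR adjusted P = 0.256), and 0 higher, against 17.0% of all genes. The 5 abundant genes that had the smallest spread had log2 fold changes of −0.01 (SE 0.086) for mt-Cytb, 0.003 (SE 0.10) for mt-Nd1, −0.03 (SE 0.09) for mt-Nd2, 0.03 (SE 0.11) for mt-Nd4 and −0.19 (SE 0.11) for mt-Co1, for which 6 of 6 HT + Stroke libraries lay below the HT + Sham median. All 26 members overlapped between the groups (1.15% of all genes did not). Without the 3 libraries the share called over all genes was 8.47%, and those among the members stayed at 0.

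The comorbid mice were also compared with controls, HT + Stroke vs NT + Sham, which shares its NT + Sham libraries with 2 of the comparisons above. Of 26 members 2 fell, mt-Tm and mt-Nd4l, and 0 rose, against 14.7% of all 16749 genes in either direction and 6.37% as lower. The tRNA gene mt-Tm had counts of 8, 11, 19, 11, 12 and 6 in HT + Stroke 1 to 6 and 36, 34, 25, 17, 15 and 14 in NT + Sham 1 to 6. mt-Tm ran from 0.702 through 1.18 to 1.85 CPM among NT + Sham libraries, from 0.657 through 0.923 to 1.99 among NT + Stroke libraries, from 0.362 through 0.969 to 1.67 among HT + Sham libraries and from 0.383 through 0.597 to 0.856 among HT + Stroke libraries (log2 fold change −1.05 ± 0.31 SE, edgeR adjusted P = 0.0356), and 5 of 6 HT + Stroke libraries lay below every NT + Sham library. The complex I gene mt-Nd4l had counts of 71, 48, 158, 37, 90 and 69 in HT + Stroke 1 to 6 and 172, 275, 80, 193, 153 and 101 in NT + Sham 1 to 6 (log2 fold change −1.02 ± 0.32 SE, edgeR adjusted P = 0.0467), and again 5 of 6 lay below every NT + Sham library. Both rest on low counts, 6 to 36 for mt-Tm and 37 to 275 for mt-Nd4l over all libraries. With the counts of its copy Gm10222 added, mt-Nd4l had a log2 fold change of −0.77 (SE 0.25, adjusted P = 0.0510).

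At an unadjusted P under 0.05, 6 members were lower and 0 higher, against 29.6% of all genes, namely mt-Tm and mt-Nd4l, mt-Ty, mt-Te, mt-Tl1 and mt-Co1. The catalytic complex IV gene mt-Co1 had a log2 fold change of −0.23 (± 0.094 SE, edgeR adjusted P = 0.108), with 5 of 6 HT + Stroke libraries below every NT + Sham library. For each of the 26 members the groups overlapped, and for 5.93% of all genes they did not. Without HT + Stroke 1 and 6, 0 members were called (20.6% of all genes), with log2 fold changes of −0.87 for mt-Tm (adjusted P = 0.0989) and −1.03 for mt-Nd4l (adjusted P = 0.0884). The number called was also 0 without HT + Stroke 1, 2 or 4 or NT + Sham 1 or 2, 1 without HT + Stroke 5 or 6 or NT + Sham 3, 4 or 5, 2 without NT + Sham 6 and 4 without HT + Stroke 3. The one call was mt-Tl1 without HT + Stroke 5 and mt-Ty without HT + Stroke 6. Over the 12 fits that each left out 1 library, mt-Tm was called in 4 and mt-Nd4l in 3. Of 8 neuronal markers 4 fell in this comparison, and 6 of 8 microglia and macrophage, 5 of 6 oligodendrocyte, 3 of 7 astrocyte and 4 of 4 fibroblast markers rose. Their part in the mitochondrial values was not tested.

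Whether stroke acted differently in HT and NT mice was tested by the interaction over all 24 libraries. Of 28 members tested 0 passed with edgeR or with DESeq2, as did 0% of 17608 genes with edgeR, and at an unadjusted P under 0.05 there were 0 members and 10.4% of all genes. The smallest adjusted P was 0.513, for mt-Co3 (log2 difference between the stroke changes −0.59, SE 0.31). For mt-Rnr2 and mt-Nd1, which fell in NT mice, the differences were 0.20 (SE 0.16) and 0.19 (SE 0.12), so that a smaller fall in HT mice was not shown.

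The 2 ratios examined between mitochondrial mRNA counts differed widely between libraries within every group. Of mt-Co1 the last 483 bases, and of mt-Nd4 the first 876, match a chromosome 1 copy. A shift between these mRNAs and uneven counting along them therefore cannot be told apart here. The ratio of mt-Co1 to mt-Nd4 counts was 1.12 in HT + Stroke 4 and 2.55 in NT + Sham 4. It was 1.52 to 2.55 among NT + Sham libraries with a median of 1.86, 1.71 to 2.39 with a median of 1.91 for NT + Stroke, 1.61 to 2.53 with a median of 1.82 for HT + Sham and 1.12 to 2.47 with a median of 1.65 for HT + Stroke, so that the groups overlapped widely. The ratio of mt-Nd5 to mt-Nd4 had its lowest and highest values in the same pair of libraries, 0.196 and 0.479. The levels of the nuclear genes of a library also varied with gene length. A library's length slope was taken as the Spearman correlation, over 11953 nuclear genes, of each gene's deviation from its mean log2 CPM with its length. It ranged from −0.43 in HT + Stroke 4, where longer genes were lower, to 0.45 in NT + Sham 4, where they were higher. Over 24 libraries the log2 ratio of mt-Co1 to mt-Nd4 correlated with the length slope (Pearson r = 0.928, permutation P = 1e-05, adjusted 3e-05, and Spearman rho = 0.888, permutation P = 1e-05, adjusted 3e-05), the smallest P that 100000 permutations can give. Without the 2 libraries farthest from the median slope r was 0.909, and within the groups of 6 it was 0.992 in NT + Sham, 0.887 in NT + Stroke, 0.993 in HT + Sham and 0.920 in HT + Stroke. A slope with GC content in place of length gave r = −0.741 (permutation P = 7e-05, adjusted 0.0001) and rho = −0.701 (permutation P = 0.00021, adjusted 0.00031), and r = −0.674 without its 2 farthest libraries. The library total gave r = 0.0995 (permutation P = 0.64, adjusted 0.64) and rho = 0.241 (permutation P = 0.26, adjusted 0.26). These 3 relations were chosen after the data were seen, and what produces the slope was not tested.

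**Figure D5:**
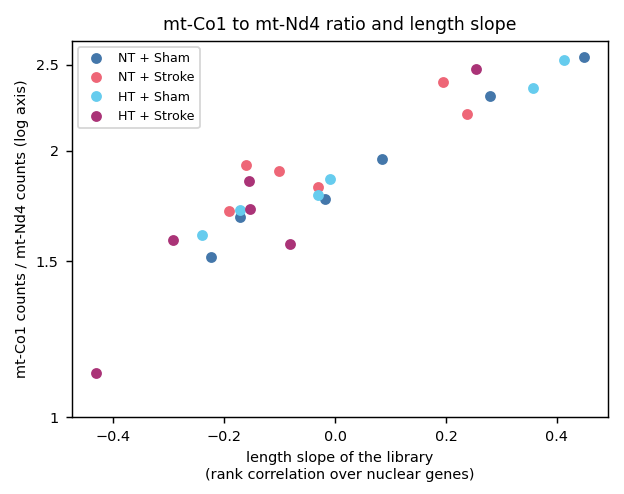
Ratio of mt-Co1 to mt-Nd4 counts (y axis, log scale) against the length slope of the library (x axis, rank correlation over nuclear genes), 1 point per library, coloured by group. The 24 libraries lie along 1 rising line (r = 0.928) from HT + Stroke 4 at −0.43 and 1.12 to NT + Sham 4 at 0.45 and 2.55, with the groups mixed along it.

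The length slope was also used as a covariate, an alternative chosen after the data were seen. In NT + Stroke vs NT + Sham 35.0% of all genes were then called in either direction, and 12 of 26 members were lower and 0 higher. They were mt-Rnr1, mt-Rnr2, mt-Nd1, mt-Nd2, mt-Nd3, mt-Nd4, mt-Co1, mt-Cytb, mt-Tw, mt-Tn, mt-Tc and mt-Te. The log2 fold change of mt-Rnr2 was −0.32 (adjusted P = 1.31e-05) and that of mt-Cytb −0.14 (adjusted P = 0.0211). In HT + Stroke vs NT + Sham 9 of 26 members were then lower and 0 higher (15.8% of all genes were called in either direction), and in the other comparisons 0 were called. The shares of all genes with the covariate are not split by direction here. The 9 were mt-Rnr1, mt-Rnr2, mt-Nd1, mt-Nd2, mt-Nd3, mt-Nd4, mt-Co2, mt-Cytb and mt-Tm, and the call of mt-Nd4l was lost. In HT + Stroke vs NT + Sham the log2 fold change of mt-Rnr2 was −0.16 (SE 0.13) without the covariate and −0.35 (SE 0.075) with it. The group medians of the slope were 0.0331 in NT + Sham, −0.0664 in NT + Stroke, −0.0199 in HT + Sham and −0.154 in HT + Stroke, and whether it follows the treatment was not tested.

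The nuclear genes that build and serve the same complexes were read from lists, without a set test. In NT + Stroke vs NT + Sham, 1 of 38 nuclear-encoded complex I genes, 0 of 9 complex III genes, 1 of 15 complex IV genes and 0 of 15 ATP synthase genes were called, against 25.9% of all genes. The median log2 fold changes of these lists were −0.11, −0.09, −0.16 and −0.09, against −0.01 over all genes. Both calls were upward, of Ndufa12, an accessory subunit of complex I (log2 fold change 0.64 ± 0.19 SE, edgeR adjusted P = 0.0253), and of Cox6b2, a complex IV subunit isoform known from testis (0.99 ± 0.15 SE, edgeR adjusted P = 9.76e-05). The other genes named from these lists did not pass in this comparison, namely Ndufb6 of complex I (−0.19 ± 0.078 SE, edgeR adjusted P = 0.0813), Cox7a2 of complex IV (−0.24 ± 0.089 SE, edgeR adjusted P = 0.0531), Uqcrc2 (−0.13 ± 0.058 SE, edgeR adjusted P = 0.117) and Uqcrb (0.04 ± 0.083 SE, edgeR adjusted P = 0.803) of complex III and Atp5c1 (−0.08 ± 0.053 SE, edgeR adjusted P = 0.299) and Atp5h (−0.09 ± 0.089 SE, edgeR adjusted P = 0.515) of the ATP synthase. With the length slope as a covariate 25 of 38 complex I genes, 6 of 9 complex III genes, 12 of 15 complex IV genes and 11 of 15 ATP synthase genes were lower, and 1 complex I and 1 complex IV gene higher, where 35.0% of all genes were called in either direction. In HT + Stroke vs NT + Sham 3, 1, 2 and 2 genes of these lists were then lower (15.8% of all genes were called in either direction). Without the covariate 0 genes of the 4 lists were called in HT + Sham vs NT + Sham, in HT + Stroke vs NT + Stroke, in HT + Stroke vs HT + Sham or the interaction. Complex II has no mitochondrial gene. In NT + Stroke vs NT + Sham the log2 fold changes of its genes were −0.11 ± 0.053 SE (edgeR adjusted P = 0.132) for Sdha, −0.08 ± 0.071 SE (edgeR adjusted P = 0.485) for Sdhb, 0.06 ± 0.061 SE (edgeR adjusted P = 0.535) for Sdhc and −0.03 ± 0.045 SE (edgeR adjusted P = 0.657) for Sdhd. These genes had 0 calls in any comparison without the covariate. With it, 2 of these 4 were lower in NT + Stroke vs NT + Sham (Sdha and Sdhb) and 1 in HT + Stroke vs NT + Sham (Sdhb).

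Of 18 genes for transcription and replication of the mitochondrial genome, 0 were called in any comparison without the covariate, and with it 1 was higher in NT + Stroke vs NT + Sham and 1 in HT + Stroke vs NT + Sham. In NT + Stroke vs NT + Sham the values without it were log2 fold change 0.06 ± 0.063 SE, edgeR adjusted P = 0.529 for Polrmt, the mitochondrial RNA polymerase, and −0.08 ± 0.061 SE, edgeR adjusted P = 0.353 for Tfam, which packages the genome and helps to start its transcription. In HT + Sham vs NT + Sham they were log2 fold change −0.16 ± 0.075 SE, edgeR adjusted P = 0.618 for Mterf3 and 0.21 ± 0.12 SE, edgeR adjusted P = 0.720 for Tefm, the elongation factor. Of 21 genes for processing, polyadenylation and turnover of mitochondrial RNA, 2 fell in NT + Stroke vs NT + Sham. They were Lrpprc, which stabilises mitochondrial mRNA (log2 fold change −0.16 ± 0.052 SE, edgeR adjusted P = 0.0311), and Ptcd2 (−0.24 ± 0.064 SE, edgeR adjusted P = 0.00953), while the poly(A) polymerase gene Mtpap did not pass (−0.05 ± 0.074 SE, edgeR adjusted P = 0.693). Of 77 mitochondrial ribosomal protein genes 4 fell and 0 rose, among them Mrps14 (log2 fold change −0.23 ± 0.066 SE, edgeR adjusted P = 0.0138) and Mrps17 (−0.18 ± 0.055 SE, edgeR adjusted P = 0.0202), and with the length slope as a covariate 27 of the 77 were lower. Over all genes in NT + Stroke vs NT + Sham 25.9% were called in either direction and 11.5% as lower without the covariate. With it the shares in either direction were 35.0% there and 15.8% in HT + Stroke vs NT + Sham. These shares are to be read beside the counts of these lists. Of 12 translation factors 1 fell, Mrrf, which recycles mitochondrial ribosomes (log2 fold change −0.24 ± 0.076 SE, edgeR adjusted P = 0.0281), and Mtrf1 did not pass (−0.19 ± 0.12 SE, edgeR adjusted P = 0.256). Of 14 biogenesis regulators 1 fell, Prkaa2, a catalytic subunit of AMP-activated kinase (log2 fold change −0.46 ± 0.08 SE, edgeR adjusted P = 0.000294), and Ppargc1a, the coactivator PGC-1 alpha, did not pass (−0.05 ± 0.085 SE, edgeR adjusted P = 0.736). Of 13 markers of mitochondrial membranes and matrix 1 fell, the chaperone gene Hspd1 (log2 fold change −0.18 ± 0.054 SE, edgeR adjusted P = 0.0226), and the import channel gene Timm23 did not pass (−0.20 ± 0.078 SE, edgeR adjusted P = 0.0647).

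In HT + Stroke vs NT + Sham 2 biogenesis regulators fell, Ppargc1a (log2 fold change −0.27 ± 0.08 SE, edgeR adjusted P = 0.0325) and Prkaa2 (−0.41 ± 0.10 SE, edgeR adjusted P = 0.0177), as did Hspd1 (−0.20 ± 0.059 SE, edgeR adjusted P = 0.0364). Cox6b2 (log2 fold change 0.75 ± 0.17 SE, edgeR adjusted P = 0.0142) and Ndufa12 (0.87 ± 0.26 SE, edgeR adjusted P = 0.0431) rose, and the NT + Sham libraries are the same as in NT + Stroke vs NT + Sham. Of the 21 genes for mitochondrial RNA processing 1 was called higher and 1 lower. Over all genes tested in HT + Stroke vs NT + Sham, 14.7% were called in either direction and 6.37% as lower. These shares are to be read beside the counts of the lists. Of the 7 chromosome 1 copies 0 were called in NT + Stroke vs NT + Sham and 1 in HT + Stroke vs NT + Sham. It was Gm28439, the copy of the start of mt-Nd4 (log2 fold change −0.53 ± 0.17 SE, edgeR adjusted P = 0.0499), whose 152 to 349 counts among HT + Stroke libraries met 240 to 494 for NT + Sham, so that the groups overlapped, and Gm10222 did not pass (−0.33 ± 0.23 SE, edgeR adjusted P = 0.372). In HT + Stroke vs NT + Sham without the 3 libraries, 20.6% of all genes were called. Of the lists, 0 of the 7 copies, 0 of 38 complex I genes and 0 of 13 membrane and matrix markers were called. The calls of Gm28439, Ndufa12 and Hspd1 were thus lost, while 2 biogenesis regulators and 1 complex IV gene were called.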

How the data were processed

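Poly(A) RNA of 24 libraries, 6 in each of 4 groups, was sequenced by the authors, who deposited read counts per gene (featureCounts 1.5.0-p3 and DESeq2 1.20.0 in the submitters' processing notes) and FPKM. The aligner, genome build and strand setting are not given in the sources used here. Groups came from the labels, and the 4 deposited tables were joined by gene ID, with 0 of 48 comparisons of a library between tables differing. Deposited normalized counts, fold changes and P-values were not used. Library totals were 15922919 to 24865998, which limits only members with few counts. Counts were tested with edgeR 4.0.16 (R 4.3.3, TMM scaling, filterByExpr with a minimum count of 10 and total of 15, robust quasi-likelihood, two-sided), adjusted by Benjamini-Hochberg over all genes tested at a threshold of 0.05. The functions were tested on simulated data. Alternatives used DESeq2 1.42.0, limma 3.58.1 on log2 FPKM with a pseudocount of 1 or 0.1, other scalings, filters and libraries. The length slope as a covariate, leaving out 3 libraries, adding the copies and unadjusted DESeq2 were chosen after seeing the data. Nuclear copies were found with BLAST+ 2.17.0 (at least 90% identity over 100 bases) in GENCODE M21 transcripts. The members and lists were chosen with earlier results of these data known. All members are named, and from each other list the 2 genes with the smallest P in the comparison with the most calls, the complex II genes, Tfam, Polrmt, Ppargc1a, Lrpprc and Mtpap.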

Additional observations from a re-analysis of the deposited data

Results flagged for a closer look

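In each group of 6 libraries, the library farthest from the rest was examined for the share of mitochondrial counts and for members' CPM, and in 15 of 120 groups its gap to the nearest other, as a share of the group's range, exceeded Dixon's critical value for 6 samples. For a single group chance gives about 1 in 20. The 120 groups reuse the same libraries, and the share is a sum over the members, so they are not independent. The number found therefore cannot be set against that rate. HT + Stroke 3 was lowest of its group for mt-Rnr2 at 3179 CPM (the others were at 4621 to 5388), for mt-Nd1 at 7437 CPM, for mt-Nd4 at 5941 CPM and for mt-Cytb at 9952 CPM. NT + Stroke 5 was highest of its group for the share of mitochondrial counts at 6.98% (the others were at 6.10% to 6.23%), for mt-Nd6 at 2882 CPM and for mt-Tp at 93.4 CPM. HT + Sham 4 was highest of its group for mt-Atp8 at 15.2 CPM (the others were at 0.712 to 2.20) and for mt-Tn at 34.2 CPM. The other 6 were mt-Tl1 in HT + Sham 3 (6.33 CPM, highest), mt-Ty in NT + Sham 4 (4.83 CPM, highest), mt-Ty in HT + Sham 1 (1.96 CPM, lowest), mt-Co3 in HT + Stroke 6 (124.6 CPM, highest), mt-Nd4l in HT + Sham 5 (13.3 CPM, highest) and mt-Nd4 in NT + Stroke 1 (6144 CPM, lowest). What sets these libraries apart was not tested.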

How the results depend on the processing

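In NT + Stroke vs NT + Sham, where 4 of 26 members were called, the number was 7 with DESeq2, 0 without scaling, 1 with upper-quartile scaling, 1 with library sizes and TMM from nuclear genes, 0 with the mitochondrial total as library size, 6 with all genes of at least 1 count, 2 with at least 10 counts in every library, 0 with limma at either pseudocount (1 or 0.1), 1 with all 4 groups in one fit, 12 with the length slope, 4 with the copies added, 9 at an unadjusted P under 0.05 and 11 at an unadjusted P with DESeq2. In HT + Stroke vs NT + Sham, with 2 called, it was 5 with DESeq2, 1 without scaling, 2 with upper-quartile scaling or nuclear TMM, 0 with the mitochondrial total, 1 with either filter, 1 with limma at either pseudocount, 5 with all 4 groups, 9 with the length slope, 0 without the 3 libraries, 1 with the copies added, and 6 and 7 at an unadjusted P with edgeR and DESeq2. Leaving out 1 library gave 0 to 6 and 0 to 4 calls in these comparisons and 0 in the others. In HT + Sham vs NT + Sham, then HT + Stroke vs NT + Stroke, then HT + Stroke vs HT + Sham, unadjusted calls were 3, 4 and 1 with edgeR and 3, 5 and 2 with DESeq2, and adjusted calls were 0 in each alternative run, as for the interaction, where a fit of all 4 groups is the design itself. Group medians of the mitochondrial share, in the order NT + Sham, then NT + Stroke, HT + Sham, then HT + Stroke, were 5.86%, 5.35%, 5.49% and 5.37% for the mRNA genes over counts without rRNA, and 17.98%, 16.3%, 17.01% and 16.5% of summed FPKM. Over 23 pairs of a gene and a comparison, 272 alternative values kept direction and side of the threshold, 41 passed it anew, 43 no longer passed and 1 reversed, mt-Nd4 in NT + Stroke vs NT + Sham with the mitochondrial total (log2 fold change 0.00034), a scaling that moved the median of all genes up by 0.157. Beyond what each alternative itself changes, the cause was not tested. Few counts limit the tRNA genes and mt-Atp8. No paired analysis was possible because the labels link no libraries of different groups by animal, litter or batch.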

Other observations

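The counts of Gm29216, the chromosome 1 copy of the end of mt-Co1, fell into separate ranges that did not follow the groups. In 18 libraries it was 38.3 to 74.7 CPM and in 6 it was 132 to 264 CPM. The 6 libraries were NT + Sham 1 and 2, NT + Stroke 5, HT + Sham 2 and 4 and HT + Stroke 4, so that each group held both kinds. Of the bases aligned between the copy and mt-Co1, 1 differs. The cause was not tested.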
